A study of Mus musculus with 8 samples.

Results

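The 36 genes described here encode cytokines and chemokines, their receptors, and the JAK-STAT and NF-kB proteins that carry those signals to the nucleus. They were listed by name from 21631 protein-coding genes on chromosomes 1 to 19 and X, as 11 cytokine and chemokine genes set against 25 receptor and signalling genes. That methylated cytokine genes stand against unmethylated signalling genes was known from earlier results of these data when the list was made. DNA methylation had been measured by whole-genome bisulfite sequencing, which converts unmethylated cytosines so that they read as thymines. The cells were quiescent muscle stem cells, sorted from limb muscle as CD45-, CD31-, Sca1- and VCAM+. The old group was 4 male C57BL/6 mice of 22 months and the young group was 4 male C57BL/6 mice of 4 months, with 1 animal per library and no other treatment in the labels. The comparison asks how methylation at these genes differs between the ages. The deposited table gives, for each CpG cytosine position, 1 methylation level and 1 dispersion per age, and the authors' p-value and FDR for old against young. Neither the single animals nor the read counts are given there, so the levels below are the authors' group values, have no SD, and have an unknown depth at each position. The labels state 115 to 200 M reads per library.

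Cytokines and chemokines are secreted signals that bind receptors on the cell surface. Receptors of the interleukin-6 family share the subunit encoded by Il6st (gp130) and activate Janus kinases, which phosphorylate STAT transcription factors; SOCS proteins, induced by STATs, shut the signal off. NF-kB dimers are held in the cytoplasm by IkB proteins such as that of Nfkbia until tumour necrosis factor, interleukin-1 or microbial products release them. In muscle, both pathways respond to injury and act on muscle stem cells. Promoters rich in CpG sites are usually unmethylated in mammalian cells whether or not the gene is transcribed, and a methylation level alone does not give expression.

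The members' windows and spans, out to 2000 bp beyond both ends of each gene, held 30014 CpG cytosine positions, of which 205 lay within reach of a pair of members. Levels are means over positions, in percent. A transcription start was taken from the RefSeq promoter table of build GRCm38.p6 for 29 members, the most upstream one where it lists several, and the start window reaches 2000 bp to each side of it. The other 7, Il10, Ccl2, Ccl5, Ccl7, Nfkb1, Relb and Socs2, are given by both ends of their RefSeq span. As a check of the cell label, the start of Pax7, the master regulator of muscle stem cells, stood at 3.95% in old and 3.92% in young cells, and that of the myogenic factor Myf5 at 12.6% in old and 12.7% in young cells. The less methylated end of Vcam1, the antigen used to select the cells, stood at 19.7% in old and 19.6% in young cells. The start of Ptprc, which encodes the excluded CD45, stood at 71.6% in old and 69.7% in young cells. Both ends of Pecam1, which encodes the excluded CD31, were above 70% in both ages, and those of Ly6a, which encodes the excluded Sca1, lay between 48.0% and 56.5%.

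The sequences below are 300-base promoters, from 250 bases before to 50 bases from the start. They are printed 5′ to 3′ in the direction of transcription with every CpG in capitals. The first pair is the most and the least methylated ligand start, Il1a (interleukin-1 alpha; chr2:129309923-129310222, minus strand, 5 CpGs) and Cxcl12 (the chemokine that retains CXCR4+ cells; chr6:117168285-117168584, plus strand, 20 CpGs).
Il1a: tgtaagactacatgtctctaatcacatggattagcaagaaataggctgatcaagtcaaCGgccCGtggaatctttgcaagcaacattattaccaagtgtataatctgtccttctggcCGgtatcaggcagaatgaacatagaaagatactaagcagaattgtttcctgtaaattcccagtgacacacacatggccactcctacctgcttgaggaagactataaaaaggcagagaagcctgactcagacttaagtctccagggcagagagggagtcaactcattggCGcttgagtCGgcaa
Cxcl12: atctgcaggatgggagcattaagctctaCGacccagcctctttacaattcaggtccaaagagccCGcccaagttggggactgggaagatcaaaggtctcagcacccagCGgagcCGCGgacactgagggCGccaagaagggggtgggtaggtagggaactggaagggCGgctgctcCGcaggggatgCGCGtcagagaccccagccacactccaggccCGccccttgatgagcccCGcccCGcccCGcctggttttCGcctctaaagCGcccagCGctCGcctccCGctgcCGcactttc
The second pair is the most and the least methylated signalling start, Stat4 (chr1:51986898-51987197, plus strand, 2 CpGs) and the kinase gene Jak2 (chr19:29251553-29251852, plus strand, 44 CpGs).
Stat4: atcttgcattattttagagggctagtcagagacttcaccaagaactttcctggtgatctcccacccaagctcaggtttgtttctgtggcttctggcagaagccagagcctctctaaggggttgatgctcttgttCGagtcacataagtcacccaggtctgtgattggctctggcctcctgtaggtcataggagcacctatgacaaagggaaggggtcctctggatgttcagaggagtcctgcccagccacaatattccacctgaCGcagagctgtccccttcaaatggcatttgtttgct
Jak2: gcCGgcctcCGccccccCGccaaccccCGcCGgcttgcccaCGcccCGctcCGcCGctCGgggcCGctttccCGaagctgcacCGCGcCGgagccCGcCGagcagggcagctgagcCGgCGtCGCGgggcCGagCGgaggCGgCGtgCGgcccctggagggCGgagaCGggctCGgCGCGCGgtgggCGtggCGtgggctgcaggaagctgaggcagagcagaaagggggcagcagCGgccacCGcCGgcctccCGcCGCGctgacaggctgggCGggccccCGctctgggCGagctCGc
The last group holds inducible inflammatory genes whose promoters had a low level between methylated flanks, chosen after their values were seen. They are Il6 (chr5:30012864-30013163, plus strand, 3 CpGs), Tnf (chr17:35201958-35202257, minus strand, 11 CpGs) and Cxcl10 (chr5:92348840-92349139, minus strand, 10 CpGs). All coordinates are 1-based on GRCm38.p6 and all sequences are RefSeq's.
Il6: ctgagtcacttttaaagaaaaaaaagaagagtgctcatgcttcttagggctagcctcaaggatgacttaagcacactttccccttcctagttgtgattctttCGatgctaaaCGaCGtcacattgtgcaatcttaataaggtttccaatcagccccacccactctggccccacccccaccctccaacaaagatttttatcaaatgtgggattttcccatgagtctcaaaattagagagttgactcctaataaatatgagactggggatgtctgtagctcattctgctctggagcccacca
Tnf: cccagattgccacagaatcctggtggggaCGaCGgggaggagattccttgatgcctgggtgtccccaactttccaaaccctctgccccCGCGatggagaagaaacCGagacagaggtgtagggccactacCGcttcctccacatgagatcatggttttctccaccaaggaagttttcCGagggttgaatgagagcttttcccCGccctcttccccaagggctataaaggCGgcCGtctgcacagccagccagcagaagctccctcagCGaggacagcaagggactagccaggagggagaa
Cxcl10: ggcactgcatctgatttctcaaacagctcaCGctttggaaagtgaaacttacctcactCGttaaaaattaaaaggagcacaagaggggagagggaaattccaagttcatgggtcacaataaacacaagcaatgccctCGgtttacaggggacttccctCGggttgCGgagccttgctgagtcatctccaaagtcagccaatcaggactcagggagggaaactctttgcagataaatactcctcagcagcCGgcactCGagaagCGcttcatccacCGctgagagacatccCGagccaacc

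Over windows of 2000 bp to each side, 4 of 7 ligand starts were methylated, and most receptor and signalling starts were not. Within 2000 bp of the start, the median over 7 ligand genes was 58.0% in old and 57.2% in young cells, and the median over 22 receptor and signalling genes was 14.5% in old and 13.9% in young cells. With a mean of both ages under 20% called unmethylated and 50% or more called methylated, 1 ligand start was unmethylated, 2 were intermediate and 4 were methylated. Of the signalling starts 15 were unmethylated, 6 were intermediate and 1 was methylated. Over 16621 protein-coding genes with at least 10 positions the median was 22.6% in old and 22.6% in young cells, with 45.3% of them unmethylated and 30.4% methylated. The contrast depended on the width. Within 500 bp 2 ligand starts were methylated, 3 intermediate and 2 unmethylated. Of the 22 signalling starts 21 were unmethylated and 1 was methylated at that width. Over 14900 protein-coding genes 72.3% were unmethylated there. The gap between the medians narrowed to 20.9 points in old and 22.4 points in young cells. Over 2000 bp it was 43.6 points in old and 43.3 points in young cells. The sets were formed with earlier results of these data known and genes are not replicates, so the gap is given without a test. In a sorted bulk population a different mix of cells and a different level within cells cannot be told apart.

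**Figure D1:**
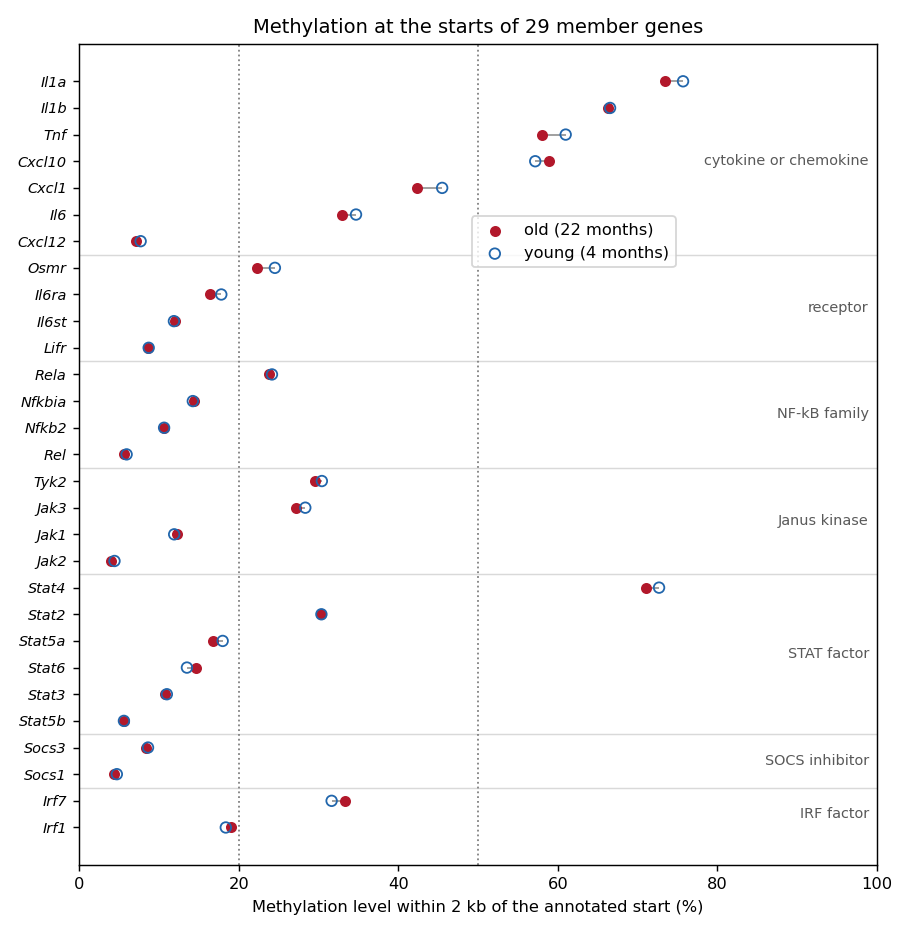
Methylation level within 2 kb of the annotated start of 29 genes, in percent, 1 filled point for old and 1 open point for young cells, grouped by role; dotted lines mark 20% and 50%. Ligand genes spread from 7.07% (Cxcl12, old) to 75.7% (Il1a, young), while all receptor and signalling genes except Stat4 lie at or under 33.3%, and the widest gap between the 2 ages is that of Cxcl1, at -3.12 percentage points.

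Among the ligands the interleukin-1 genes were the most methylated. Il1a stood at 73.4% in old and 75.7% in young cells and its neighbour Il1b at 66.3% in old and 66.5% in young cells. Tnf, encoding tumour necrosis factor, stood at 58.0% in old and 61.0% in young cells over the same width. Cxcl10, a chemokine induced by interferon, stood at 58.8% in old and 57.2% in young cells. For both, the mean over the window was in the methylated class. Cxcl1, a neutrophil chemokine, was intermediate, at 42.4% in old and 45.5% in young cells, and so was Il6, at 33.0% in old and 34.7% in young cells. Cxcl12, which stromal cells make constitutively, was the 1 unmethylated ligand start, at 7.07% in old and 7.68% in young cells.

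A narrower view separated the ligands into those with and those without a low promoter. Over the CpGs of the 300-base promoters, Il1a was at 71.8% in old and 74.9% in young cells. Il1b was at 57.2% in old and 62.9% in young cells. The promoters of Il1b and Cxcl1 are not printed above. Over the same stretch Cxcl10 was at 8.18% in old and 6.58% in young cells. The promoters of Cxcl1 (13.2% in old, 16.8% in young cells), Il6 (19.1% in old, 22.2% in young cells) and Tnf (19.95% in old, 27.2% in young cells) lay between these. The low promoters of these genes thus sat inside methylated flanks. Around the start of Cxcl10 the consecutive positions under 20% covered 286 bp in old and 375 bp in young cells, around Il6 they covered 635 bp in old and 433 bp in young cells, and around Cxcl1 577 bp in old and 413 bp in young cells. Cxcl12 held a much longer stretch, of 2091 bp in old and 1952 bp in young cells, and Il1a, Il1b and Tnf held none at the position nearest to the start.

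**Figure D2:**
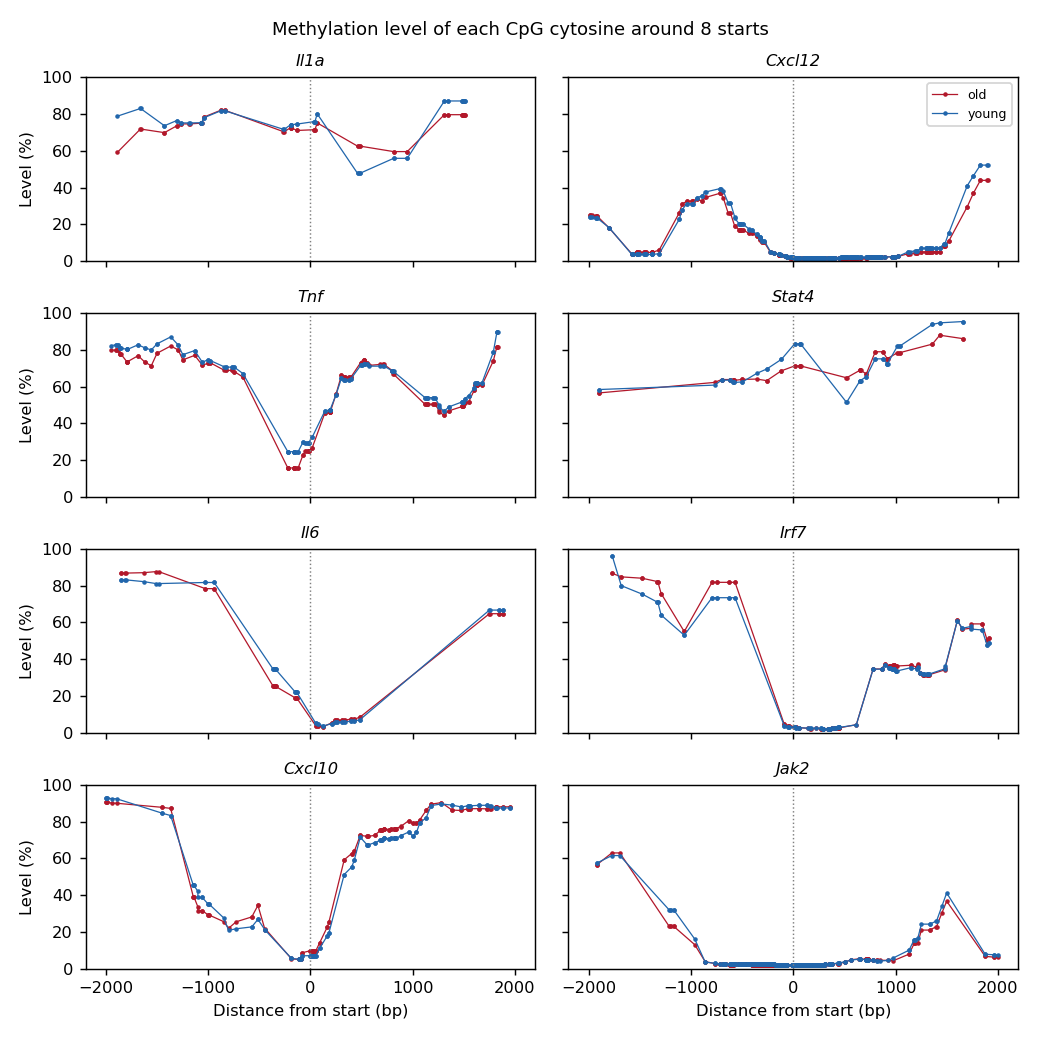
Methylation level of each CpG cytosine in percent against the distance from the annotated start in bp, along transcription, for 5 ligand genes (Il1a, Tnf, Il6, Cxcl10, Cxcl12) and 3 signalling genes (Stat4, Irf7, Jak2), old and young cells as separate lines; the genes were chosen after their values were seen. Il1a and Stat4 stay high across the start, and Tnf, Il6, Cxcl10 and Irf7 drop at the start between methylated flanks. Jak2 is low over a broad stretch on both sides of the start, and Cxcl12 over a broad stretch around the start that lies mostly downstream. Neighbouring points often share a level because the deposited levels were smoothed.

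The 4 receptors had low starts of differing width. Lifr, the receptor subunit for leukaemia inhibitory factor, stood at 8.65% in old and 8.69% in young cells. Il6st stood at 12.0% in old and 11.8% in young cells. Il6ra, the subunit that binds interleukin-6 itself, stood at 16.4% in old and 17.8% in young cells. Osmr, the oncostatin M receptor, was just intermediate, at 22.3% in old and 24.5% in young cells, but within 500 bp of the start it was at 2.81% in old and 2.90% in young cells. A further annotated start of Lifr, downstream of the first, stood at 72.4% in old and 71.4% in young cells, so the low level belonged to the more upstream of these. RefSeq's span of Lifr begins before both.

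NF-kB genes followed the same pattern. Rel, which encodes c-Rel, stood at 5.58% in old and 5.92% in young cells, Nfkb2, the precursor of p52, at 10.6% in both ages, and the inhibitor gene Nfkbia at 14.3% in old and 14.2% in young cells. Rela, encoding p65, was intermediate over 2000 bp, at 23.8% in old and 24.1% in young cells, and was at 2.18% in old and 2.16% in young cells within 500 bp. Of the members without a listed start, Nfkb1, the precursor of p50, had 1 end at 7.02% in old and 7.35% in young cells and the other at 72.3% in old and 72.0% in young cells. Relb had ends at 11.8% in old and 11.9% in young cells and at 41.5% in old and 42.5% in young cells. Each thus had 1 unmethylated end.

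The Janus kinases spanned a wider range. Jak2 had the lowest start of all 29, at 4.01% in old and 4.40% in young cells, and Jak1 stood at 12.3% in old and 11.9% in young cells. Jak3, whose use is largely restricted to blood cells, stood at 27.1% in old and 28.3% in young cells, and Tyk2 at 29.5% in old and 30.4% in young cells. Within 500 bp Tyk2 was at 2.63% in old and 2.87% in young cells, while Jak3 was at 6.80% in old and 7.54% in young cells. Jak3 was set apart by its body. Over its whole span of 923 positions it stood at 14.8% in old and 14.5% in young cells, at percentile 3.92 of protein-coding genes, whereas the spans of Jak1, Jak2 and Tyk2 lay between 65.8% and 71.0% in old and between 65.9% and 70.7% in young cells.

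Stat4, the STAT that interleukin-12 activates in lymphocytes, was the 1 signalling gene with a methylated start, at 71.0% in old and 72.7% in young cells. A further annotated start of Stat4 inside the gene was intermediate, at 33.6% in old and 32.9% in young cells. Stat5b and Stat3 were low, at 5.57% in old and 5.58% in young cells for Stat5b and at 10.7% in old and 10.96% in young cells for Stat3. A further annotated start of Stat5b, downstream of the first, stood at 57.5% in old and 56.7% in young cells. The low level of Stat5b thus belonged to its more upstream start. Stat6, which answers interleukin-4, stood at 14.6% in old and 13.5% in young cells, and Stat5a at 16.8% in old and 17.96% in young cells. Stat2, a partner in interferon signalling, was intermediate over 2000 bp, at 30.3% in both ages, and was at 2.96% in old and 2.83% in young cells within 500 bp. The 500-bp level of Stat6, 17.6% in old and 15.5% in young cells, was above its 2000-bp level in both ages.

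The inhibitors and interferon factors completed the set. Socs1 stood at 4.38% in old and 4.69% in young cells at its start and at 2.33% in old and 2.34% in young cells over its whole span. Socs3 stood at 8.39% in old and 8.60% in young cells at its start and at 5.99% in old and 6.27% in young cells over its span. These short genes were unmethylated from end to end. The longer Socs2 had ends at 8.48% in old and 8.73% in young cells and at 84.3% in old and 83.4% in young cells. Irf1 stood at 18.96% in old and 18.4% in young cells. Irf7, the master regulator of type I interferon genes, was intermediate, at 33.3% in old and 31.6% in young cells, with 2.84% in old and 2.82% in young cells within 500 bp. Among the ligands without a listed start, no end was unmethylated: Ccl5, Ccl7, Ccl2 and Il10 ranged from 47.6% to 78.9% in old and from 46.2% to 77.5% in young cells.

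**Figure D3:**
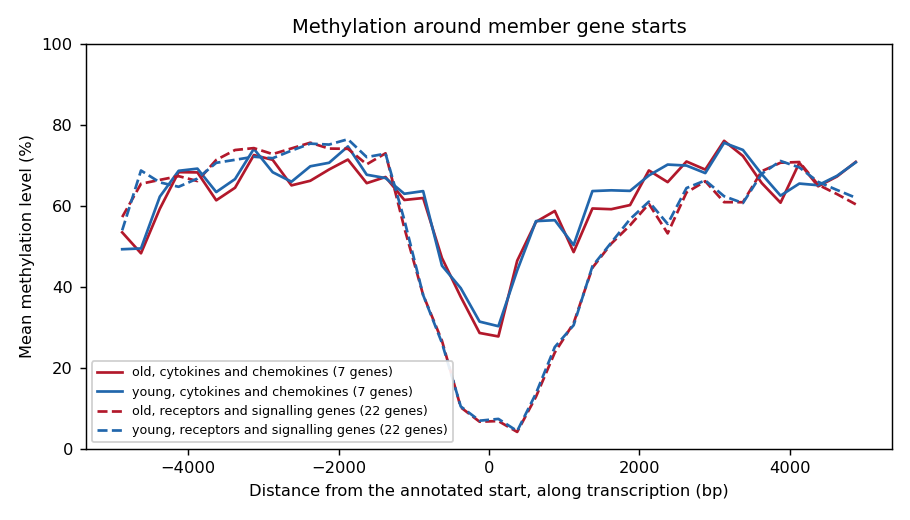
Mean methylation level in percent by 250-bp bin of distance from the annotated start, in bp along transcription, for 7 cytokine and chemokine genes (solid) and 22 receptor and signalling genes (dashed), in old and young cells; each gene with a CpG in a bin counts once. In the 250 bp upstream of the start the ligand mean was 28.6% in old and 31.4% in young cells and the signalling mean 6.69% in old and 6.94% in young cells, and in the bins beyond 2 kb both sets lay between 48.3% and 76.1% in old and between 49.3% and 75.6% in young cells.

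CpG number in the promoter ran alongside the level. The 7 ligand promoters held 3 to 20 CpGs with a median of 10, the 22 signalling promoters 2 to 53 with a median of 24, and all 17147 promoters with a measured start window a median of 14. Spearman's rho between CpG number and start level was -0.71 over the 29 members and -0.75 over all genes. Within the classes it was weaker, at -0.38 over the 7 ligand genes and -0.60 over the 22 signalling genes. The points share the same libraries, and depth per position, which may vary with base composition, is not known. Stat4 with 2 CpGs and Jak2 with 44, both printed above, are the most and the least methylated signalling starts. Some members lay off the trend. Il6 with 3 CpGs and Stat5a with 5 had start levels far under the median of 63.6% for promoters with 0 to 4 CpGs and of 49.98% for 5 to 9. The 5 CpGs of Stat5a are those of its most upstream start. A further annotated start of Stat5a, downstream of it, stood at 2.83% in old and 2.75% in young cells within 500 bp. That start lies inside the start window of the first, so the level of Stat5a covers both. Tnf with 11 and Cxcl10 with 10 lay above the median of 20.02% for 10 to 19 CpGs, and Stat2 with 22 and Tyk2 with 23 above the 12.5% for 20 or more. Whether CpG number accounts for the gap between ligands and signalling genes was not tested.

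**Figure D4:**
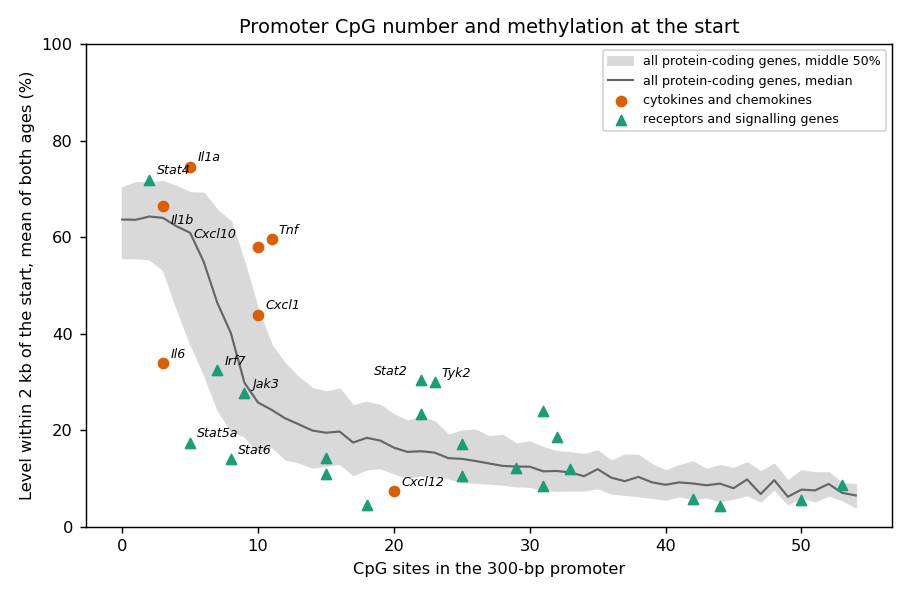
Methylation level within 2 kb of the start, mean of both ages in percent, against the number of CpG sites in the 300-bp promoter; points are member genes by class, the line and band are the median and middle 50% of all protein-coding genes with that CpG number (numbers with at least 20 genes). Stat4 and the interleukin-1 genes sit at the upper left, Stat5a, Stat6 and Il6 under the band at few CpGs, and Tnf and Cxcl10 above it.

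The promoters were searched on both strands for 4 short patterns picked for these pathways after the levels were known. The NF-kB-type pattern, GGG and TTTCC with any 2 bases between them, was found in 5 of 29 member promoters, those of Il6, Cxcl1, Nfkb2, Nfkbia and Rel, and in 1.59% of 17274 protein-coding promoters. In Il6 it reads gggattttcc and starts 44 bases before the start site, and in Cxcl1 it reads gggaatttcc and starts 71 bases before it. None of the 6 matches holds a CpG, so methylation was not measured inside them. The interferon-response pattern, GAAA repeated after any 2 bases, was found in Cxcl10, Socs1 and Stat2 (3.43% of all promoters), and the STAT pattern TTCNNNGAA in Irf1, Nfkb2 and Socs3 (7.87% of all). In Irf1 and Nfkb2 the match reads ttccccgaa and holds 1 CpG. Over the CpGs of these promoters the level was 2.39% in old and 2.46% in young cells for Irf1, and 2.48% in old and 2.63% in young cells for Nfkb2. The pattern TATAAA was found in Il1a, Il1b, Tnf, Irf7 and Nfkbia (13.4% of all). A match is a run of letters and not a shown site of binding. The patterns are strict, so a promoter without a match can hold a near variant, as Cxcl10 does with gggaaattcc for the NF-kB-type pattern.

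Differences between the ages at the starts were small. Old minus young ranged from -3.12 to 1.69 percentage points over the 29 start windows, with a median of -0.31 points; 22 were lower and 7 higher in old cells. Without positions at the commonest dispersion values 17 were lower and 12 higher in old. Over all 16621 protein-coding starts the median was 0.02 points with 51.3% higher in old, and the middle 90% lay between -2.31 and 3.16 points. Within 500 bp, 21 members were lower and 8 higher in old, where 41.3% of all genes were higher. No start, other end or span of a member passed a gene-level test, which doubles the median p of the authors' table in a window, with Benjamini-Hochberg adjustment. The share of all genes called was 0% for each of the 3 (5, 3 and 2 genes had an unadjusted p under 0.05, none a member). This test asks that most positions of a window shift. With 1 level per age, these differences could not be set against the spread between mice.

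Over 2000 bp the members with the widest gaps at the start were the ligands Cxcl1, Tnf and Il1a. The third, Il1a (-2.28 points), barely exceeded the receptor gene Osmr (-2.23 points). Within 500 bp the widest gap was that of the signalling gene Stat4, at -7.49 points over 13 positions. These hold 5 distinct pairs of smoothed levels, and 0 of them had a p under 0.05 in the authors' deposited table. Within 1 kb the Stat4 difference was -0.30 points. Its further annotated start was 3.33 points higher in old cells within 500 bp. Cxcl1 differed by -3.12 points (old minus young) at the start window. Over its span, of 64 positions, it stood at 46.6% in old and 51.7% in young cells, a difference of -5.14 points, at percentile 0.581 of all protein-coding spans. Of these 64 positions 3 had a p under 0.05 in the authors' deposited table and 0 passed the FDR, and the gene-level value was 0.90 before adjustment. Its far end stood at 52.1% in old and 55.8% in young cells. Cxcl1 was therefore lower in old cells in each window.

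Tnf differed by -2.93 points at its start. The gap was widest in the promoter printed above, where each of 22 cytosines was lower in old cells, the 12 farthest upstream at 15.8% in old and 24.7% in young cells; the smallest p among the 22 was 0.15 in the authors' deposited table. The neighbouring values are smoothed, so these are not separate measurements. Its span stood at 61.5% in old and 62.3% in young cells and its far end at 61.3% in old and 62.5% in young cells. By the median over positions in place of the mean, the Tnf start was 1.49 points higher in old cells.

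Il1a differed by -2.28 points over 2000 bp but by 0.88 points within 500 bp, so its direction depended on the width. Its span stood at 70.6% in old and 69.9% in young cells and its far end at 43.9% in old and 45.0% in young cells. Among the signalling genes, Osmr differed by -2.23 points at its start, with 7 of 205 positions at a p under 0.05 in the authors' deposited table, and its span stood at 65.6% in old and 64.9% in young cells. These windows of Osmr thus differed in opposite directions. Stat4 differed by -1.66 points over 50 positions and by -7.49 points over the 13 positions within 500 bp; its span stood at 66.5% in old and 65.9% in young cells and its far end at 66.7% in old and 66.2% in young cells. Irf7 was higher in old cells, by 1.66 points over 2000 bp and by 0.02 points within 500 bp. The gap of Irf7 thus lay outside the low promoter. Stat6 was 1.13 points higher in old cells over 2000 bp, 2.09 points higher within 500 bp and 5.03 points higher over the 14 cytosines of its promoter, at 20.1% in old and 15.1% in young cells.

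Over whole spans most members were slightly higher in old cells, as were most genes. Of 36 spans 24 lay above and 12 below 0 (old minus young), with a median of 0.29 points, against 72.0% higher and a median of 0.39 points over all 20483 spans tested. All 3 SOCS spans were lower in old, down to a difference of -0.47 points (Socs2, 37.6% in old and 38.0% in young cells). Of the 11 ligand spans 7 were higher in old. The widest were Il10, an anti-inflammatory cytokine, at 58.9% in old and 55.9% in young cells, Cxcl10 at 67.6% in old and 64.8% in young cells, and the monocyte chemokine gene Ccl2 at 58.6% in old and 56.2% in young cells. The Ccl2 value rests on 22 positions. Il10 pointed in opposite directions at its ends, at 66.2% in old and 62.7% in young cells at its left end and at 63.6% in old and 70.5% in young cells at its right end. The lengths of unmethylated stretches were often equal: of 24 starts with one in both ages, 12 had the same length, 8 were longer and 4 shorter in old cells. Stat6, not among these 24, had a stretch of 2584 bp in young cells and none in old cells, where the nearest positions passed the 20% line narrowly, at 21.3% in old and 16.4% in young cells (p of 0.298 in the authors' deposited table).

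Single positions passed the authors' test at 14 of the 36 genes. Of the 30014 positions, 23 (0.0766%) passed an FDR of 0.05 in the authors' deposited table, against 0.236% of all positions; 16 were higher in old (0.132% of all) and 7 lower (0.105% of all). Inside the members' spans lay 15 of the 23, among 26288 positions counted per gene. Inside the spans of all genes 27515 of 17228579 positions passed (0.16%). At least 1 such position within 2000 bp of the span was found for 38.9% of members and for 39.3% of all genes. The members' share of genes was thus near that of all genes. None of the 23 lay in the start window of one of the 29 genes; over all genes 0.0402% of start-window positions passed. The dispersion of all 23 stood at the commonest value of one age or the other (0.0434 in old, 0.0438 in young), as it did for 24.0% of all positions, and without such positions 0 were left.

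**Figure D5:**
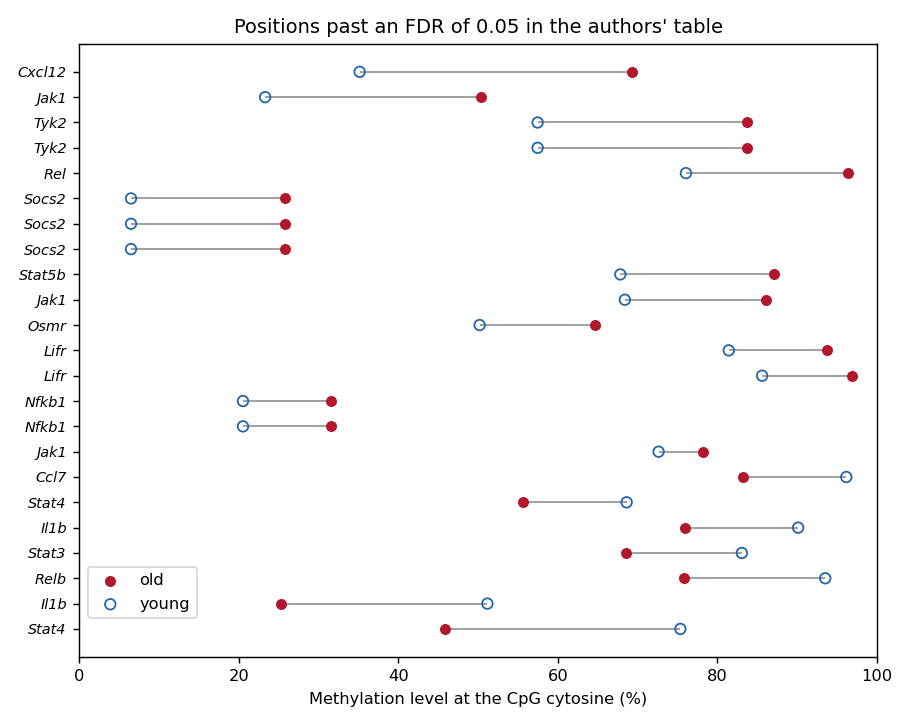
Methylation level in percent at each of the 23 member positions past an FDR of 0.05 in the authors' deposited table, 1 row per position named by its gene, filled points for old and open points for young cells, ordered by old minus young. The 16 upper rows are higher in old cells, led by Cxcl12 (69.3% in old, 35.1% in young cells), and the 7 lower rows are lower in old cells, down to Stat4 (45.9% in old, 75.4% in young cells).

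The called positions of the kinase and receptor genes were all higher in old cells. Jak1 held 3 inside the gene, the widest at 101250077 on chromosome 4, which rose to 50.4% in old cells, against 23.3% in young cells (FDR 2.19e-05 in the authors' deposited table). Tyk2 held 2, at 21102177 and 21102240 on chromosome 9, beyond its far end, both at 83.7% in old and 57.5% in young cells. Lifr held 1 inside the gene at 7181420 on chromosome 15, at 93.7% in old and 81.4% in young cells, and 1 outside its span at 7088923, at 96.9% in old and 85.6% in young cells. Osmr held 1, at 6833936 on chromosome 15, at 64.6% in old and 50.2% in young cells.

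Socs2 held the only CpG of the 36 genes called on both of its strands. Its cytosines at 95397297 and 95397298 on chromosome 10, inside the gene, rose to 25.8% in old cells, against 6.47% in young cells, with FDRs of 0.0032 and 0.0427 in the authors' deposited table, and a further one at 95397279 had the same levels. The 7 positions within 250 bp of it averaged 22.7% in old and 7.18% in young cells. For the other called positions the opposite cytosine, where listed, had the same levels as the called one but did not pass. At 7181420 in Lifr the called cytosine had a p of 1.945e-13 in the authors' deposited table, and its opposite cytosine, at equal levels, 0.1935. Over all 22 called positions with a listed opposite cytosine, the pair in Socs2 included, its p had a median of 0.0988 in the authors' deposited table.

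Called positions of NF-kB and STAT genes went both ways. Rel held 1 at 23768048 on chromosome 11, at 96.4% in old and 76.1% in young cells. Nfkb1 held 2, at 135634641 and 135634662 on chromosome 3, at 31.6% in old and 20.5% in young cells. Relb was lower in old, at 75.8% in old and 93.5% in young cells at 19606060 on chromosome 7. Stat5b was higher at 100795851 on chromosome 11 (87.1% in old, 67.8% in young cells), and Stat3 lower at 100921146 on the same chromosome (68.6% in old, 83.1% in young cells). Both called positions of Stat4 were lower in old: 52091648 on chromosome 1 stood at 45.9% in old and 75.4% in young cells, and 52048484 at 55.6% in old and 68.6% in young cells.

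The ligand genes held 4 called positions among 2096 counted per gene, and 0 among the 1326 inside their spans. Of all positions 0.236% passed, and of those inside the spans of all genes 0.16%. Cxcl12 held the widest difference of all 23, 1996 bp beyond its far end at 117183364 on chromosome 6, with 69.3% in old and 35.1% in young cells. Il1b held 2 beyond its far end, both lower in old: 129364231 on chromosome 2 stood at 25.3% in old and 51.2% in young cells, and 129363906 at 75.9% in old and 90.1% in young cells. Ccl7 held 1, at 82048609 on chromosome 11, at 83.2% in old and 96.2% in young cells. The remaining ligands, Il1a, Il6, Il10, Tnf, Ccl2, Ccl5, Cxcl1 and Cxcl10, held none.

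Short runs of neighbouring positions leaned one way at 6 genes. A run had at least 5 positions with a p under 0.05 in the authors' deposited table, 1 sign and gaps of at most 100 bp; 2.61% of all positions have such a p. The run was a description, with no adjustment for the search, and none of its positions passed the FDR. Runs were searched for at the member genes only, so whether 6 genes is more or fewer than usual was not tested. Smoothed neighbours share levels, so the share of single positions does not give how often a run arises. Il6ra held a run of 5 positions upstream of its start, 1743 bp away at 89914939 to 89914981 on chromosome 3, with 33.2% in old and 64.8% in young cells. Rela held a run of 7 positions 867 bp from its start, at 5636591 to 5636674 on chromosome 19, with 40.8% in old and 56.5% in young cells. Both were lower in old cells. The other runs, inside Socs2 (85.7% in old, 62.8% in young cells over 7 positions), Jak1 (75.2% in old, 61.2% in young cells), Nfkb1 (96.0% in old, 82.8% in young cells) and Tyk2 (74.2% in old, 63.5% in young cells), were higher in old.

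Dispersion, the authors' value for the variability of a position, hardly differed between the ages or the gene classes. At the start windows the median over members of the per-gene median was 0.0445 in old and 0.0450 in young cells, against 0.0441 in old and 0.0445 in young cells over all starts. Ligand starts stood at 0.0434 in old and 0.0438 in young cells, which are the most common values in the table, and signalling starts at 0.0445 in old and 0.0451 in young cells. The share of start-window positions at a most common value ranged from 5.14% in Socs1 to 47.3% in Il6. Among the genes named above, the start of Cxcl12 stood at 0.0449 in old and 0.0453 in young cells, that of Cxcl1 at 0.0434 in old and 0.0438 in young cells, and that of Lifr at 0.0457 in old and 0.0463 in young cells.

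The other 90 genes of the same pathways, a list drawn up from pathway membership, leaned the same way by class. Of 17 ligand starts 3 were unmethylated, 4 intermediate and 10 methylated. Of 53 receptor and signalling starts 35 were unmethylated, 11 intermediate and 7 methylated. The receptors alone, with 8 of 19 unmethylated, were more mixed than the intracellular signalling and transcription genes, with 27 of 34. No gene-level test was passed (0% of all genes at starts), and 64 positions at 32 of the 90 genes were called by the authors' deposited table at its FDR of 0.05, with 6 in start windows. They were 0.101% of 63166 positions, against 0.236% of all positions, and 35.6% of the 90 genes, against 39.3% of all genes.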

How the data were processed

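The labelled age put 4 mice in the old and 4 in the young group. Each library took 150 ng of DNA and 14 PCR cycles and was read as paired 101-bp reads, per the labels' protocols. The submitters' processing notes name edgeR, Bismark and Trim Galore, and the builds mm10 and GRCm38; their versions and roles, and which tool smoothed and tested, were not stated there (not given in the sources used here). Per the file headers, the deposited levels (mu) are a fraction from 0 to 1 per age, printed here as percent, and phi is a dispersion score per age whose definition is not given. The authors' p-value and FDR are deposited per position. Levels are equal over many neighbouring positions and so were smoothed: neighbours are not independent and narrow differences are flattened. Without counts, depth per position is unknown and no coverage minimum was set.

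Members and gene lists were chosen with earlier results of these data known. Deposited positions count from 0: shifted by 1 they met 96.9% of CpG cytosines in RefSeq promoters, against 53.9% unshifted, so 1 was added throughout. Spans and starts came from RefSeq (GRCm38.p6); all 36 members matched the gene table and 29 the promoter table. Windows needed at least 10 positions for the gene-level test, which was checked on simulated independent p-values. It found the wider simulated shifts of whole windows but not the narrowest, so small shifts can be missed. Neighbouring deposited positions are not independent, so the simulation does not show which shifts the test could call in these data. The naming rule took all members at the start; in full, the 3 ligand and 3 signalling genes with the widest start difference, those with a called position, and those whose class went against their side. Further examples were chosen after their values were seen. Python 3.11.15, numpy 2.4.6, pandas 2.3.3 and matplotlib 3.10.9 were used. Alternatives were window widths, the median, dropping the positions whose dispersion had the commonest value, and a stricter FDR of 0.01.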

Additional observations from a re-analysis of the deposited data

How the results depend on the processing

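No paired analysis was possible because the table holds 1 value per age and none per animal; for the same reason no replicate could be left out. Of the 23 called positions, 0 were left after dropping positions with the commonest dispersion value, and 1 CpG was called on both strands. Gene-level counts stayed at 0 under the alternatives run: windows of 1 kb at starts and other ends, and no minimum or the first quartile of p at starts, other ends and spans. The ligand minus signalling gap in medians at starts, 43.6 points in old and 43.3 in young cells, was 20.9 in old and 22.4 in young cells within 500 bp, and 26.8 in old and 28.6 in young cells within 5 kb. The median old minus young difference at member starts (-0.31 points) was -0.136 within 500 bp, -0.154 within 1 kb, -0.045 by medians, -0.159 without the most common dispersion values (17 lower, 12 higher) and -0.785 after subtracting the genome-wide mean (25 lower, 4 higher); that subtraction turned the span median (0.29 points) to -0.179. The subtraction took the same 0.473 points from every gene, so the shifts it made follow from that constant. Over all protein-coding starts the median difference was 0.02 points. The cause of the other shifts was not tested. Among the 6 genes named for start differences, Cxcl1, Osmr, Stat4 and Irf7 kept their sign in all 5 alternatives, Tnf in 4 and Il1a in 3.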
